A study of Mus musculus with 8 samples.

Results

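Among sorted microglia of the mouse lumbar spinal cord, 1638 of 14626 kept cells (11.2%) carried at least 5 mRNA molecules of Ccl3 and Ccl4 in sum. These cells are called Ccl3/Ccl4-high cells here. A kept cell was a barcode with at least 1000 UMIs (unique molecular identifiers, each standing for 1 captured mRNA molecule), at least 500 genes and at most 10% mitochondrial UMIs. The high cells were compared with the 8568 kept cells of the same libraries that had no UMI of either gene, called Ccl3/Ccl4-zero cells. The 4420 cells with 1 to 4 UMIs lay between the classes. Since the classes were cut from a count, they are ranges and not cell types: 440 cells had a sum of 4, just outside the high class, and 283 had a sum of 5, just inside it.

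Ccl3 and Ccl4 encode the chemokines MIP-1α and MIP-1β, small secreted proteins that attract monocytes, T cells and other leukocytes through chemokine receptors. Both genes are transcribed quickly in macrophages and microglia once NF-kB is active, and their mRNAs are short-lived. A20, the product of Tnfaip3, is itself an NF-kB target and removes or edits ubiquitin chains upstream of NF-kB, which limits the response. Microglia are also known to raise Ccl3, Ccl4 and immediate-early genes while tissue is dissociated.

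The study used 8 single-cell libraries of C57BL/6 mice, 1 per group. Control animals were Cx3cr1-yfp-creER/+ and A20 cKO animals were Cx3cr1-yfp-creER/+; Tnfaip3 fl/fl. In each genotype 1 library was naive and the others came 1, 2 and 3 days after bilateral transection of the sciatic nerve. All groups carried 1 altered Cx3cr1 allele that drove YFP and a tamoxifen-inducible Cre. Per the study's methods tamoxifen preceded the experiments, lumbar cords of several animals were pooled per group, and the meninges were removed before homogenization, Percoll separation and sorting for YFP. Other macrophages and monocytes also express Cx3cr1. With 1 library for each genotype and time, shares were not tested between groups and are given with exact 95% Clopper-Pearson intervals that cover counting error only.

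Libraries held between 1648400 and 15817426 UMIs. Control day 3 and the 4 A20 cKO libraries shared 256 cell barcodes in 10 pairs of libraries, against 45.6 expected for barcodes drawn independently, whereas the remaining 3 control libraries had 27 barcodes in common over 3 pairs, with 37.9 expected. These 5 libraries are called the linked libraries below. Of the high cells, 38 carried a barcode also found in another library, and in 8 of these 38 cases the partner was a high cell too. The genotype contrast and the linked split differ only in control day 3, so they cannot be told apart well. The high cells were microglial by their markers: P2ry12 was found in 97.8% of the 1638 cells, Tmem119 in 99.6%, Csf1r in 99.1% and Cx3cr1 in 97.3%. These pooled shares rest mostly on control day 1, and per library P2ry12 was found in 75.8% (A20 cKO day 2) to 100% of high cells and Tmem119 in at least 93.9%. Fcrls was found in at least 97.1% of the high cells of each control library but in 45.7%, 55.6%, 36.4% and 29.0% of those of A20 cKO naive, day 1, day 2 and day 3. Zero cells of these A20 cKO libraries were low as well, at 61.7%, 63.4%, 30.2% and 23.8%. In the zero cells of the control libraries it was found in 85.3% to 96.5%. C1qa was found in all high cells.

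The 2 genes lie side by side on chromosome 11 of GRCm38, Ccl3 (ENSMUSG00000000982) at chr11:83647844-83649355 on the minus strand and Ccl4 (ENSMUSG00000018930) at chr11:83662584-83664683 on the plus strand, with 13228 bases between them.

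Ccl3/Ccl4-high cells were most frequent in control day 1, where they made up 37.7% of kept cells (1254 of 3323, interval 36.1–39.4%). This library held 76.6% of all high cells. The share was 1.76% in control naive (10 of 568, 0.847–3.21%), 0.865% in control day 2 (31 of 3585, 0.588–1.23%) and 1.61% in control day 3 (34 of 2117, 1.11–2.24%). In the A20 cKO libraries it was 4.72% in naive (138 of 2922, 3.98–5.56%), 5.08% at day 1 (45 of 886, 3.73–6.74%), 4.95% at day 2 (33 of 667, 3.43–6.88%) and 16.7% at day 3 (93 of 558, 13.7–20.02%). The first 3 A20 cKO libraries had overlapping intervals, and day 3 lay above all of them. The control day 1 interval did not overlap that of any other library.

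**Figure D1:**
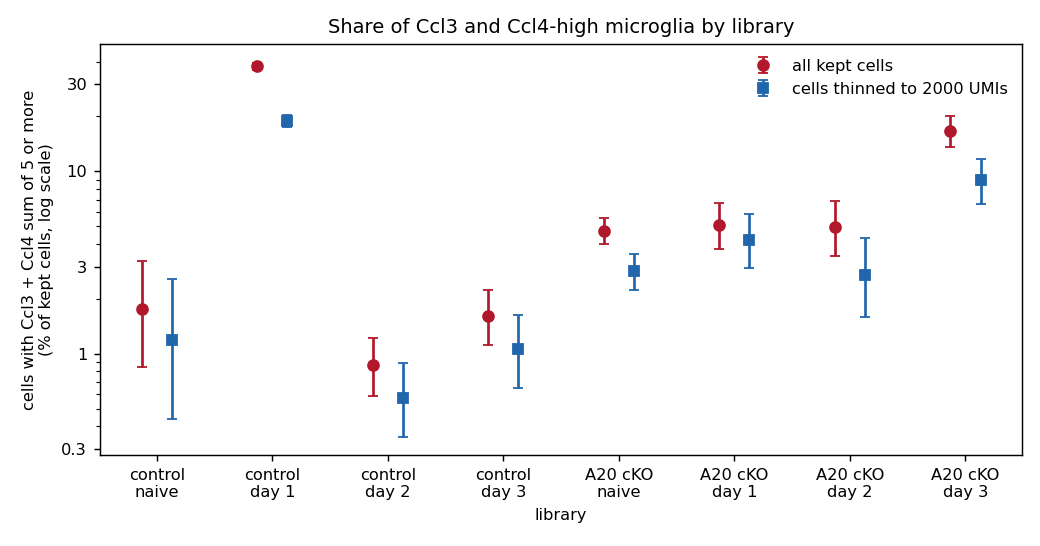
Share of kept cells with a Ccl3 and Ccl4 UMI sum of at least 5 in each of the 8 libraries, in percent, with exact 95% intervals as bars. Control day 1 stands highest at 37.7%, A20 cKO day 3 follows at 16.7%, and the other 3 control libraries lie under 2%.

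The cells with no UMI of either gene showed the other side of the same distribution. They made up 6.95% of control day 1, 50.5% of A20 cKO day 3 and between 66.1% and 85.0% of the other 6 libraries. The median sum per kept cell was 3 in control day 1 and 0 elsewhere, so the whole library and not only its upper end was shifted. When cells were thinned to 2000 UMIs each, the share of high cells was 18.9% in control day 1, 8.92% in A20 cKO day 3 and between 0.575% and 4.22% in the other 6 libraries. High cells had more UMIs to start with, as a rule on a sum of counts favours deep cells: their median was 1.26 to 1.52 times that of the zero cells in the same library.

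The Ccl3 and Ccl4 UMIs were unevenly held. High cells had a median sum between 9 and 20.5 per library, and the highest sum of all was 272, in A20 cKO day 1. They carried between 52.6% and 88.3% of all Ccl3 and Ccl4 UMIs of their library. Both genes were found in 1459 of the 1638 cells, while 71 lacked Ccl3 and 108 lacked Ccl4.

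**Figure D2:**
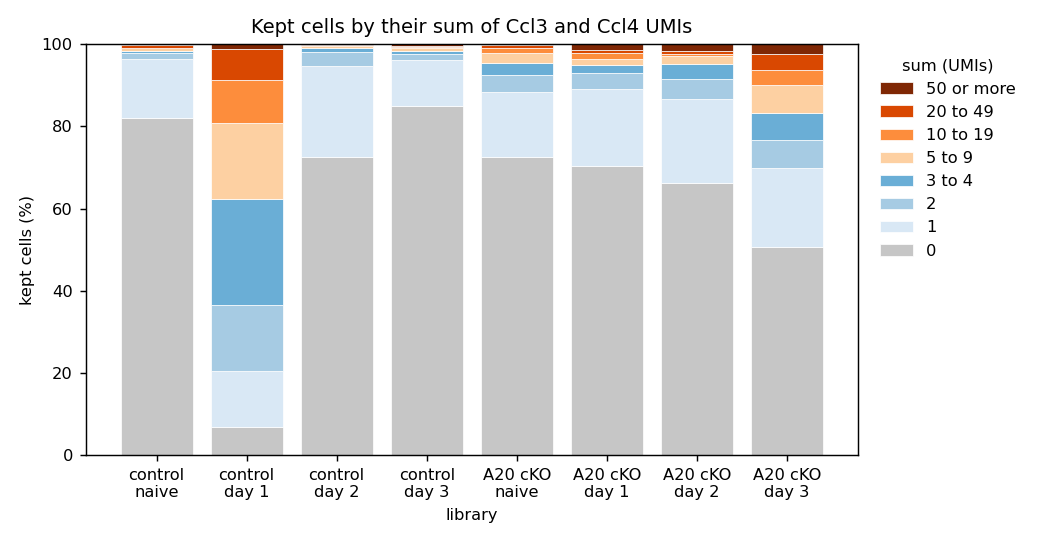
Share of kept cells of each library, in percent, by the sum of Ccl3 and Ccl4 UMIs per cell. In control day 1 only 6.95% of cells have a sum of 0, against 50.5 to 85.0% in the other 7 libraries.

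In the high cells the balance of the 2 genes also set control day 1 apart. Ccl3 gave 53.3% of the Ccl3 and Ccl4 UMIs of its high cells, against 28.5% to 37.2% in the other 7 libraries. Among cells with a sum of 1 to 4 it did not stand apart: the Ccl3 share was 53.7% in control day 1, 53.7% in A20 cKO naive, 51.5% in control day 3, 50.2% in A20 cKO day 3 and between 31.0% and 46.2% in the other 4 libraries. RNA released by broken cells can put UMIs into cells that do not express a gene. Across the series 29 kept cells lacked P2ry12, Tmem119, Csf1r, Cx3cr1 and Fcrls, and 1 of them (3.45%, 0.0873–17.8%) had any Ccl3 or Ccl4 UMI, with a median depth of 1355 UMIs. That cell, in A20 cKO day 2, had a sum of 50 and was itself a high cell, and the other 28 had none. All 29 were in the linked libraries, so control day 1 has no such background value, and the part of released RNA in its low sums was not tested.

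Beyond the 2 genes that chose them, Ccl3/Ccl4-high cells had higher mRNA of other chemokines, cytokines, NF-kB targets, immediate-early genes and interferon-response genes, and lower mRNA of microglial identity genes. UMIs were summed over the high and the zero cells of each library, and the sums were compared in pairs across the 8 libraries with edgeR's quasi-likelihood test and Benjamini-Hochberg adjustment over 8213 genes. Of these, 504 genes (6.14%) were higher and 309 (3.76%) lower in high cells at an adjusted p under 0.05. At least a 2-fold change was found for 158 higher genes (1.92%) and 13 lower genes (0.158%). High cells were above zero cells in every library for 201 genes (2.45%) and below in every library for 330 (4.02%). The high cells of control naive held 39053 UMIs in sum. A gene with no UMI there but some in its zero cells counted as below, so these 2 counts are not alike. Against zero cells matched to high cells by total UMIs within 10%, 197 of 3210 genes tested were higher (6.14%) and 75 lower (2.34%). The median log2 fold change over all genes was -0.018. Levels below are CPM, the UMIs of a gene in a summed profile scaled to a common total, given as lowest, median and highest over the 8 libraries.

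Of 10 other CC chemokines 7 had enough UMIs to be tested, and 5 of these were higher and none lower, with a median log2 fold change of 1.91. Ccl2, the main attractant of CCR2-bearing monocytes, had 113, 1210.3 and 2827 CPM in high cells and 3.86, 235 and 351 CPM in zero cells. It was higher in 8 of 8 libraries (log2 fold change 2.88 ± 0.21 SE, edgeR adjusted p = 1.3e-11), although the ranges overlapped between libraries. Ccl7, its neighbour in sequence and function, was 2.95 ± 0.23 higher (edgeR adjusted p = 6.6e-11) in 7 of 8 libraries and had no UMI in the 10 high cells of control naive. Ccl12, a further monocyte attractant of the mouse, was the most abundant of the group. Its levels were 2615, 4531 and 10358 CPM in high cells against 216, 1600.5 and 4148 CPM in zero cells (1.94 ± 0.18, edgeR adjusted p = 2.2e-09). Ccl5, an attractant of T cells, split by library: it ran from 735 to 6415 CPM in the high cells of the linked libraries and from 0 to 58.3 CPM in those of the other 3. Zero cells varied between libraries as well: Ccl5 was found in 2.16% to 89.6% of them, against 0% to 91.4% of high cells. The log2 fold change of Ccl5 was 1.91 ± 0.28 (edgeR adjusted p = 8.2e-06), with 6 of 8 libraries higher.

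Cxcl10, which draws activated T cells through CXCR3 and responds to interferon as well as NF-kB, showed the largest change of all named genes. It had 17.5, 1666.5 and 3791.5 CPM in high cells and 0.772, 64.7 and 226 CPM in zero cells, a log2 fold change of 4.46 ± 0.23 (edgeR adjusted p = 4.4e-15). High cells were above zero cells in 8 of 8 libraries. Control day 1 was the lowest in high cells, at 17.5 against 7.34 CPM, although it held most of the high cells. Cxcl16, a membrane-bound chemokine and lipoprotein receptor, was also higher in 8 of 8 libraries (97.3, 499 and 994 against 66.4, 156 and 444 CPM, 1.21 ± 0.13, edgeR adjusted p = 3.7e-08). Cxcl13, which attracts B cells, was higher in 4 libraries and lower in 2 (0.99 ± 0.26, edgeR adjusted p = 0.011). Of 9 CXC chemokines these 3 were tested, and all were called higher.

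**Figure D3:**
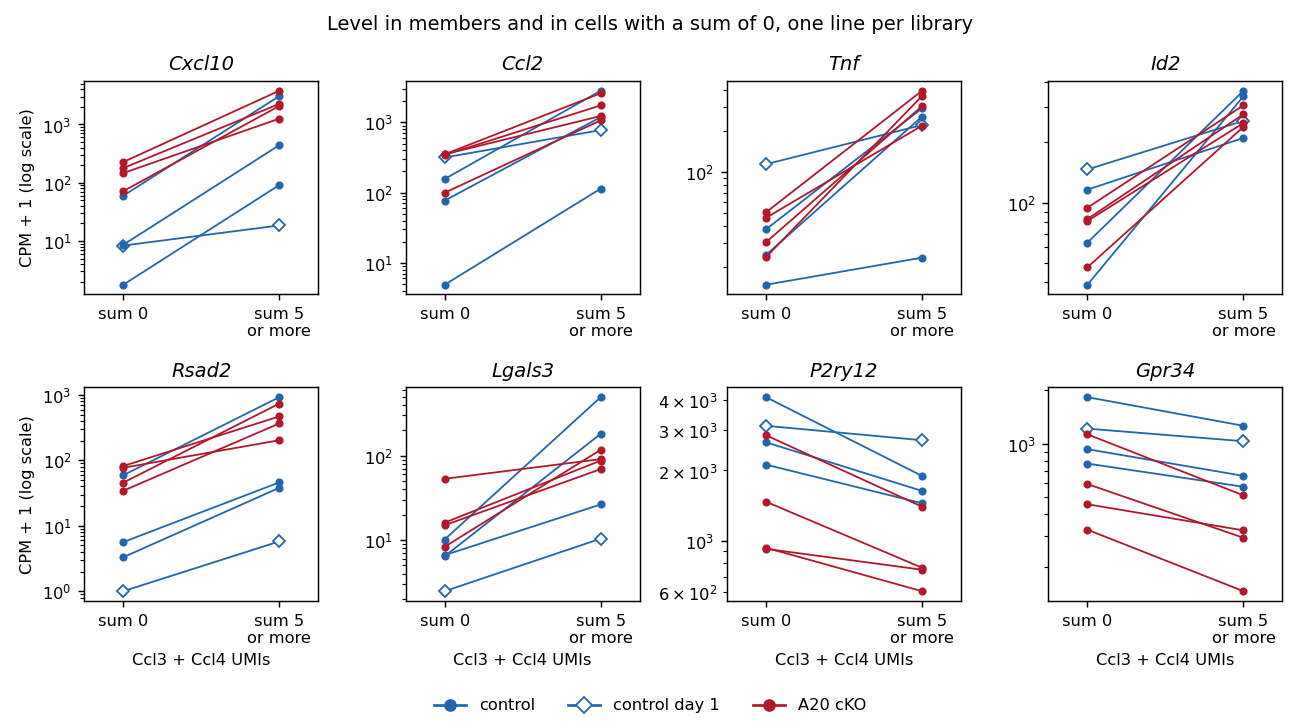
CPM of Cxcl10, Ccl2, Tnf, Id2, Rsad2, Lgals3, P2ry12 and Gpr34 in Ccl3/Ccl4-high and Ccl3/Ccl4-zero cells, shown as CPM + 1 on a log scale with lines joining the classes of 1 library (blue, control; open diamond, control day 1; red, A20 cKO). Id2 lies at 209 to 361 CPM in all high profiles and 37.9 to 145 CPM in all zero profiles, and the other genes overlap between libraries.

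Of 4 chemokine receptors tested 1 was higher and 1 lower. Ccrl2, an atypical receptor that binds chemerin, had 22.5, 109 and 266 CPM in high cells against 10.6, 23.9 and 42.6 CPM in zero cells (2.56 ± 0.26, edgeR adjusted p = 1.6e-08). Only control naive went the other way. Cx3cr1, the fractalkine receptor whose locus carries the YFP used for sorting, was lower in 8 of 8 libraries (791, 975 and 1558 against 949.7, 1443 and 2090 CPM, -0.44 ± 0.08, edgeR adjusted p = 8.8e-05).

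Tnf, Il1a, Osm and Csf1 were higher among the 7 cytokine genes tested, and none was lower. Tnf, the gene of the cytokine TNF, itself an activator of NF-kB, had 22.5, 273 and 393 CPM in high cells and 13.9, 33.3 and 113 CPM in zero cells. It was higher in 8 of 8 libraries (2.82 ± 0.21, edgeR adjusted p = 2.4e-11), although the 10 high cells of control naive held 1 UMI. Osm, a cytokine of the interleukin-6 family, separated the classes without overlap, at 30.3, 39.8 and 101 CPM in high cells against 14.9, 18.7 and 23.5 CPM in zero cells (1.36 ± 0.23, edgeR adjusted p = 7.8e-05). Over all genes 7 (0.0852%) lay above the zero cells without overlap in this way. Il1a, an alarmin of the interleukin-1 family, rose by 1.21 ± 0.18 (edgeR adjusted p = 1.2e-05). Csf1, a survival factor of microglia, rose by 2.19 ± 0.27 (edgeR adjusted p = 6.6e-07) but not in control day 1, where both classes lay near 17 CPM (16.8 and 17.6).

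Some cytokine genes had too few UMIs for the test and are given as levels. Il12b, the shared subunit of interleukin-12 and interleukin-23, was found mostly in the A20 cKO libraries. In control naive no high cell had a UMI of Il12b, and the levels of high cells in control day 1, day 2 and day 3 were 0.706, 10.6 and 12.7 CPM. In A20 cKO naive, day 1, day 2 and day 3 they were 237, 526, 1993 and 254 CPM, while zero cells of these 4 libraries had 4.10 to 14.0 CPM. Il12b was found in 42.4% of the high cells of A20 cKO day 2 and 24.4% of those of A20 cKO day 1. Il1b ranged from 0 to 80.8 CPM in high cells and from 0.467 to 8.55 CPM in zero cells.

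Of 23 NF-kB targets and feedback genes tested 17 were higher and none lower, with a median log2 fold change of 0.92. Nfkbia encodes IκBα, which holds NF-kB in the cytoplasm. It had 302, 757.5 and 1043 CPM in high cells against 195, 393 and 490.2 CPM in zero cells and was higher in 8 of 8 libraries (0.92 ± 0.09, edgeR adjusted p = 1.0e-08). Nfkbiz, a nuclear co-regulator of NF-kB, was higher in all libraries but control naive (1.74 ± 0.17, edgeR adjusted p = 1.0e-08). The costimulatory genes Cd83 and Cd40 rose by 1.88 ± 0.19 and 3.17 ± 0.29 (edgeR adjusted p = 6.9e-09 and 1.8e-09), and Cd40 had no UMI in the high cells of control day 2. Bcl2a1d, a survival gene of the BCL2 family with near-identical copies in the mouse that share reads, rose by 1.87 ± 0.15 (edgeR adjusted p = 4.7e-11).

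Tnfaip3 itself was higher in high cells than in zero cells in the fit over the 8 libraries. Its levels in control naive, day 1, day 2 and day 3 were 45.1, 30.9, 10.6 and 101 CPM in high cells and 21.6, 26.4, 7.30 and 16.6 CPM in zero cells. In A20 cKO naive, day 1, day 2 and day 3 they were 106, 116, 59.4 and 110.4 CPM in high cells and 38.1, 31.0, 49.3 and 43.6 CPM in zero cells. High cells thus had more in 8 of 8 libraries (1.30 ± 0.20, edgeR adjusted p = 2.1e-05), with the smallest ratios in control day 1 and A20 cKO day 2. Counts of 3′ ends do not show whether the floxed part of the gene was removed, so these levels check no label. In control naive, day 1 and day 2 alone the fold change was 0.34 ± 0.43 and was not called (edgeR adjusted p = 0.98). High cells of control naive held 1 Tnfaip3 UMI at a Ccl3 and Ccl4 sum of 5 to 9 and 1 at 20 or more. Those of control day 2 held 2, both at 20 or more.

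Of 16 immediate-early transcription factors tested 10 were higher and none lower, with a median of 0.42. Against depth-matched zero cells 8 of 13 were called higher, Fos among them. With the rule applied to cells thinned to 2000 UMIs 6 of 16 were, without Fos. In control naive, day 1 and day 2 alone Junb, Atf3 and Ier2 were called (3 of 18). Fos, a subunit of AP-1, was highest in control day 1 in both classes, with 22.5, 348 and 5044 CPM in high cells and 10.9, 236 and 3546 CPM in zero cells. Within libraries it was higher in 8 of 8 (0.68 ± 0.10, edgeR adjusted p = 7.1e-06), although the 10 high cells of control naive held 1 UMI. Atf3, a stress-induced repressor, rose by 2.03 ± 0.24 (edgeR adjusted p = 1.6e-07) and Egr1 by 1.14 ± 0.17 (edgeR adjusted p = 1.2e-05). Junb rose by 0.89 ± 0.09 (edgeR adjusted p = 3.5e-09). Control day 1 zero cells, at 3546 CPM of Fos and 838 CPM of Egr1, had more of both than the high cells of every other library. The part of dissociation in these values was not tested.

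Among 16 early feedback genes 9 were higher and 1, the ERK phosphatase gene Dusp6, was lower (-0.46 ± 0.10, edgeR adjusted p = 0.0023). Id2, which encodes an inhibitor of helix-loop-helix factors, had 209, 265 and 361 CPM in high cells and 37.9, 80.8 and 145 CPM in zero cells, with no overlap (1.71 ± 0.16, edgeR adjusted p = 1.6e-09). Cd69, an early activation marker of leukocytes, separated the libraries rather than the classes alone. In the linked libraries it had 108 to 482 CPM in high cells and 13.5 to 36.8 CPM in zero cells, and in the other 3 no class exceeded 2.12 CPM. Of 8 heat shock genes 5 were higher, with a median of 0.33, among them Hsp90ab1 (0.52 ± 0.08, edgeR adjusted p = 1.8e-05). Against cells with a sum of 1 to 4, 3 of 8 were called, Hsp90ab1 among them. Only Hspa5 was called against depth-matched zero cells (1 of 6) and with the rule applied to cells thinned to 2000 UMIs (1 of 8). In control naive, day 1 and day 2 alone 0 of 9 were called.

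All 18 interferon-response genes of the list were tested and were higher in high cells, with a median log2 fold change of 1.15. Rsad2, the antiviral enzyme viperin, had 4.77, 284 and 925.5 CPM in high cells and 0, 39.0 and 80.9 CPM in zero cells (3.21 ± 0.21, edgeR adjusted p = 1.0e-12). Ifit1, which binds foreign RNA caps, had 7.41, 293 and 653 CPM against 1.47, 50.8 and 82.1 CPM (2.85 ± 0.18, edgeR adjusted p = 5.6e-13). Isg15, a ubiquitin-like modifier, rose by 2.11 ± 0.16 (edgeR adjusted p = 3.0e-11). All 3 were higher in 8 of 8 libraries and lowest in control day 1.

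High cells differed between libraries in how many carried the interferon programme. At least 5 UMIs over Ifit1, Ifit2, Ifit3, Isg15, Rsad2, Usp18 and Cmpk2 were found in 1 of 10 high cells of control naive, 14 of 1254 of control day 1 (1.12%, 0.612–1.87%), 4 of 31 of control day 2 and 21 of 34 of control day 3. In A20 cKO naive, day 1, day 2 and day 3 it was 68 of 138, 25 of 45, 30 of 33 and 53 of 93. The zero cells of the linked libraries had 9.85% to 35.8% such cells, and those of control naive, day 1 and day 2 between 0% and 0.653%. At 2000 UMIs per cell the share of such high cells was 0.642% in control day 1 and 34.4% to 58.8% in the linked libraries, against 5.597% to 17.2% of the zero cells of the linked libraries. In control day 1 most high cells (1004 of 1254) had no UMI of these 7 genes. When cells with any UMI of these 7 genes were left out of both classes, 4 libraries had enough cells, and 54 genes (0.960% of 5626) were higher and 7 (0.124%) lower. Ccl2 (2.78 ± 0.26, edgeR adjusted p = 4.2e-10), Tnf (2.27 ± 0.29, edgeR adjusted p = 1.2e-06) and Cxcl10 (3.29 ± 0.46, edgeR adjusted p = 7.1e-06) were still called higher among such cells.

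The 250 bases before the start site of 4 of the 10 higher genes with the largest changes are shown from RefSeq on GRCm38.p6. Cxcl10, Rsad2, Ifit1 and Tnf were picked with their values known, as examples of the chemokine, interferon and cytokine groups. Capitals mark matches on either strand of the kappa-B motif, the interferon-stimulated element (GAAA, any 2 bases, GAAA), the AP-1 motif TGANTCA and TATAAA.
Cxcl10, chr5:92348890-92349139, minus strand: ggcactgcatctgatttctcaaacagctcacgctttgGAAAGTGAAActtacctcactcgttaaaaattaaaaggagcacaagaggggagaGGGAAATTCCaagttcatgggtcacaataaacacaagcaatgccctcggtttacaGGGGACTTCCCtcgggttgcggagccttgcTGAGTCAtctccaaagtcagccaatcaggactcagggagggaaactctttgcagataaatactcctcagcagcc
Rsad2, chr12:26456453-26456702, minus strand: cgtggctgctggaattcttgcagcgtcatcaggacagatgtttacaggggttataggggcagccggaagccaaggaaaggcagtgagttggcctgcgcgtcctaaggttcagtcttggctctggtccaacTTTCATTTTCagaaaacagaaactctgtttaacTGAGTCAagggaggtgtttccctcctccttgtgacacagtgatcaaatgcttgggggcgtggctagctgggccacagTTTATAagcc
Ifit1, chr19:34640639-34640888, plus strand: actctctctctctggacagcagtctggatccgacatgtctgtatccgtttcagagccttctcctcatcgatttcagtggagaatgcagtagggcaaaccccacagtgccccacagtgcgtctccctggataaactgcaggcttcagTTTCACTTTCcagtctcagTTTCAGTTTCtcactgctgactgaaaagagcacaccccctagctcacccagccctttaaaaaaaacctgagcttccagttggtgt
Tnf, chr17:35202008-35202257, minus strand: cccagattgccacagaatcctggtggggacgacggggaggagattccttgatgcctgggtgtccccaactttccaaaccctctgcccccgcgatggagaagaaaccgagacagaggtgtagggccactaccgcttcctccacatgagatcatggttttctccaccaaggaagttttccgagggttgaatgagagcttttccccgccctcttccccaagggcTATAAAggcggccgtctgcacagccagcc
Cxcl10 held 3 kappa-B matches, the last 2 overlapping, with 1 interferon-stimulated element and 1 AP-1 match. Ifit1 held 2 interferon-stimulated elements and Rsad2 held 1, with 1 AP-1 match. Tnf held TATAAA and no match of the other motifs in this window. Of 32851 promoters the same length, 7.25% held a kappa-B match, 2.98% an interferon-stimulated element and 6.75% an AP-1 match. Among 17 higher NF-kB genes 13 had an entry and 7 held a kappa-B match, and among 18 higher interferon genes 12 had an entry and 6 held an interferon-stimulated element. Both lists were drawn up as genes of these pathways, so these counts do not bear on the high cells. A gene was counted if any of its entries matched, whereas the shares over 32851 promoters count each entry. TATAAA was found in 12.4% of all promoters and the CRE motif, also searched, in 1.55%. The Ccl3 promoter held none of these 5 motifs. A match describes letters and not a bound site.

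Of 18 homeostatic microglia genes tested none was higher and 11 were lower, with a median of -0.34. P2ry12, the purinergic receptor that guides microglial processes, had 605, 1421 and 2697 CPM in high cells and 920.1, 2380.1 and 4130 CPM in zero cells, and was lower in 8 of 8 libraries (-0.67 ± 0.08, edgeR adjusted p = 8.2e-07). Gpr34, a lipid receptor, was lower in 8 of 8 (-0.66 ± 0.09, edgeR adjusted p = 7.0e-06), as was Tmem119 (-0.41 ± 0.07, edgeR adjusted p = 0.00012). The transcription factor gene Sall1 fell by 0.45 ± 0.13 on the log2 scale (edgeR adjusted p = 0.02) and was lower in 7 of 8 libraries. In control naive, Sall1 had 45.1 CPM in the 10 high cells and 202 CPM in zero cells.

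**Figure D4:**
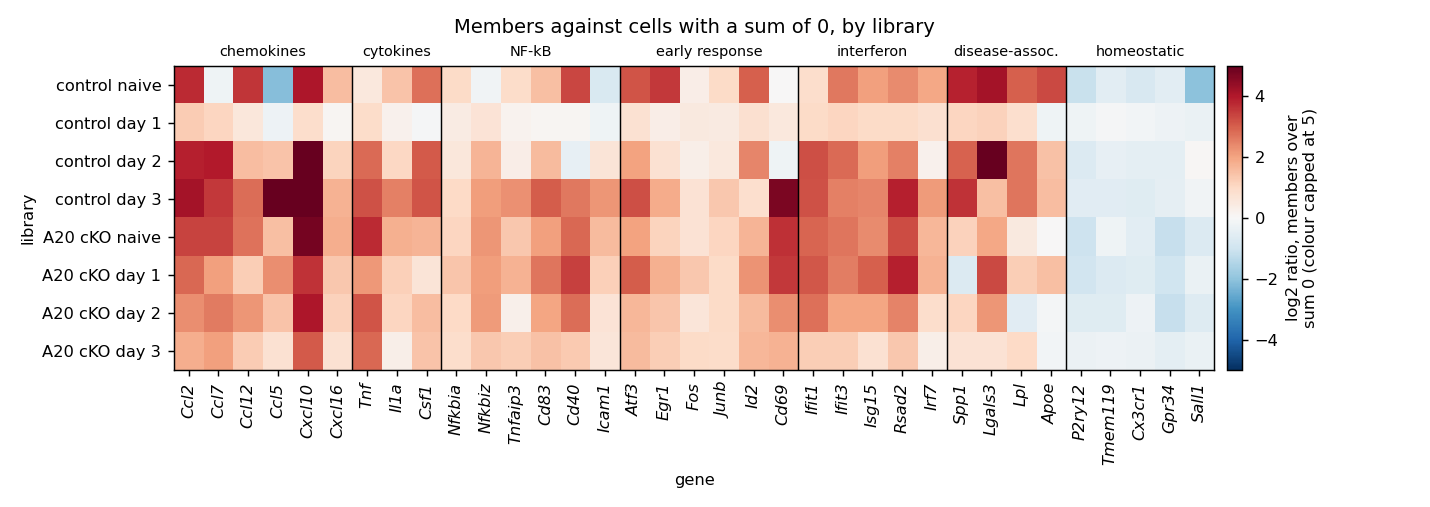
Log2 ratio of CPM in Ccl3/Ccl4-high over Ccl3/Ccl4-zero cells for chemokine, cytokine, NF-kB, immediate-early, interferon and microglial genes (columns) in each of the 8 libraries (lines), with 5 CPM added to both classes and colours capped at 5. Cxcl10 and Ccl2 are higher in all 8 libraries and P2ry12 lower in all 8, while Cd69 differs in the linked libraries.

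Disease-associated microglia genes, known from phagocytic microglia near plaques and in demyelination, were higher for 13 of 17 tested, with a median of 0.60. Lgals3, which encodes galectin-3, had 9.35, 88.2 and 493 CPM in high cells and 1.47, 8.21 and 52.2 CPM in zero cells (3.18 ± 0.39, edgeR adjusted p = 4.7e-07). Spp1, the matrix protein osteopontin, rose by 2.69 ± 0.31 (edgeR adjusted p = 1.1e-07) in all libraries but A20 cKO day 1. Apoe, a lipid carrier, was 9018 CPM in the 10 high cells of control naive against 910.0 CPM in its zero cells, and was higher in 5 of 8 libraries (0.86 ± 0.23, edgeR adjusted p = 0.011). Toll-like receptor 2, which senses bacterial lipoproteins, was higher in 8 of 8 libraries (1.53 ± 0.18, edgeR adjusted p = 1.4e-07), while 3 of 14 genes of its list were called. Of 9 MHC class I genes 4 were higher, among them Tap1 (0.76 ± 0.14, edgeR adjusted p = 0.00027), and of 4 MHC class II genes 2 were higher and 1 lower.

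By rank of fold change, with at least 20 CPM on average and the same sign in every library, Cxcl10, Rsad2, Lgals3, Lilrb4a, Ccl2, Ifit1, Tnf, Plaur, Ifit3b and Gem led the higher genes. Lilrb4a, an inhibitory immune receptor, had a log2 fold change of 2.92 ± 0.31 (edgeR adjusted p = 3.0e-08). Plaur, the urokinase receptor, had 19.9, 49.2 and 149 CPM in high cells against 7.13, 10.6 and 17.6 CPM in zero cells, without overlap (2.64 ± 0.27, edgeR adjusted p = 1.9e-08). Gem, a small GTPase, rose by 2.39 ± 0.33 (edgeR adjusted p = 3.4e-06).

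The lower genes by the same rule moved less and were led by Fry (-1.17 ± 0.20, edgeR adjusted p = 0.00012) and Etv1 (-1.07 ± 0.23, edgeR adjusted p = 0.0013). Etv1, an ETS transcription factor, had 0, 12.4 and 32.7 CPM in high cells against 34.1, 46.4 and 77.5 CPM in zero cells, without overlap, as 13 genes (0.158%) did below. Abca9, D3Ertd751e, Ddit4, Tef, Pcyox1, Lifr, Per3 and Itpripl1 fell by 0.87 to 0.97 on the log2 scale. Tef and Per3 belong to the circadian clock, and Lifr is the receptor of leukemia inhibitory factor.

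In the 3 libraries with most high cells, the levels of Tnf and Ccl2 ran along the Ccl3 and Ccl4 sum, with cells of 1 to 4 UMIs in between. Tnf in A20 cKO naive was 24.0, 61.3, 229, 292 and 723 CPM in cells with a sum of 0, 1 to 4, 5 to 9, 10 to 19 and at least 20. In A20 cKO day 3 it was 48.9, 75.6, 130.2, 284 and 684 CPM, and in control day 1 it was 106, 126, 154, 224 and 267 CPM. The order was not kept everywhere. In control day 3 Tnf was 25.3, 55.8, 16.0, 225 and 472 CPM over the same bins, in control day 2 it was 35.1 and 32.6 CPM in the lowest pair of bins, and in control naive it was 0 at a sum of 10 or more, in 6 cells. P2ry12 ran the other way in control day 1, at 2907, 2836, 2542, 2512 and 2297 CPM. Cxcl10 in control day 1 stayed between 6.85 and 18.9 CPM in all 5 bins, and in A20 cKO naive it ran from 74.3 to 3413 CPM. Compared with the cells of 1 to 4 UMIs in place of the zero cells, 291 genes (3.97% of 7329) were higher and 100 (1.36%) lower, and Tnf (1.97 ± 0.19, edgeR adjusted p = 1.5e-08) and Ccl2 (2.14 ± 0.18, edgeR adjusted p = 9.3e-10) were among the higher.

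**Figure D5:**
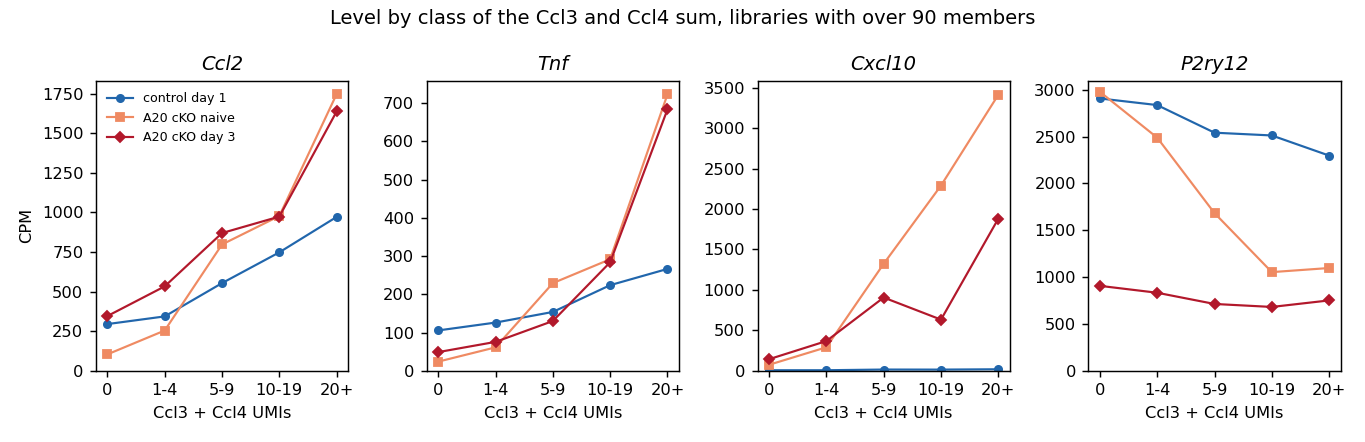
CPM of Ccl2, Tnf, Cxcl10 and P2ry12 in cells grouped by their Ccl3 and Ccl4 sum (0, 1 to 4, 5 to 9, 10 to 19, at least 20) in control day 1, A20 cKO naive and A20 cKO day 3, scaled to all UMIs of the cells. Tnf runs from 24.0 to 723 CPM in A20 cKO naive, and P2ry12 from 2907 to 2297 CPM in control day 1.

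The contrast of high and zero cells differed between genotypes for 7 genes. Larger contrasts in A20 cKO were called for 2 genes (0.0244% of 8213), Fam89a (difference of log2 fold changes 1.83 ± 0.38, edgeR adjusted p = 0.031) and Sat1 (0.90 ± 0.15, edgeR adjusted p = 0.0036), a polyamine-acetylating enzyme gene. Sat1 had 1411 to 1599 CPM in A20 cKO high cells and 645 to 957 CPM in their zero cells, while in control libraries it had 467 to 654 CPM in high and 472 to 679 CPM in zero cells. Smaller contrasts were called for 5 genes (0.0609%): Lilrb4a (-2.86 ± 0.55, edgeR adjusted p = 0.012), Lgals3 (-2.79 ± 0.53, edgeR adjusted p = 0.012), Spp1 (-2.58 ± 0.40, edgeR adjusted p = 0.0015), Lpl (-1.73 ± 0.37, edgeR adjusted p = 0.042) and Cxcl10 (-1.69 ± 0.32, edgeR adjusted p = 0.012). For Spp1, control high cells had 158, 5.65, 233 and 640.3 CPM in naive, day 1, day 2 and day 3, against 19.7, 5.06, 21.6 and 40.9 CPM in A20 cKO. The larger Cxcl10 contrast of the control libraries did not hold in control day 1. Scaled to all UMIs, Cxcl10 there ran from 6.86 CPM at a sum of 0 to 18.9 CPM at 20 or more. Every A20 cKO library rose more than that, such as day 3 from 143 to 1881 CPM. Control day 2 and day 3 ran from 7.21 to 944 CPM and from 62.7 to 4988 CPM. Control naive held 1 Cxcl10 UMI at a sum of 0 and 4 at 20 or more. Against depth-matched zero cells none of 3210 genes was called for this difference by edgeR (167 at an unadjusted p under 0.05), and DESeq2 called Spp1 and Sat1 alone. The 4 libraries of a genotype differ in time after injury and were used as replicates, so the test measures spread over times as well.

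With the linked libraries set against the other 3, 15 genes (0.183%) had a larger and 2 (0.0244%) a smaller contrast in the linked libraries. Ccrl2 (2.35 ± 0.45, edgeR adjusted p = 0.014), Tlr3 (1.49 ± 0.30, edgeR adjusted p = 0.025), Cd83 (1.35 ± 0.28, edgeR adjusted p = 0.027), Icam1 (1.31 ± 0.28, edgeR adjusted p = 0.027) and Socs3 (1.04 ± 0.24, edgeR adjusted p = 0.047) were among the larger. Lgals3 (-3.46 ± 0.48, edgeR adjusted p = 8.2e-05) and Cd74 (-2.09 ± 0.35, edgeR adjusted p = 0.0025) were the smaller. Fitted by themselves, the 3 other libraries gave 52 higher genes (0.643% of 8085) and 13 lower (0.161%), and the 5 linked libraries 580 (7.10% of 8165) and 292 (3.58%). The fits differ in libraries and cells, with 10 high cells in control naive and 31 in control day 2, so these counts are not a like comparison. Of the genes called higher over all 8 libraries, 428 were tested in the 3 libraries and 369 kept their sign. Of those called lower, 302 of 306 kept it. In the 3 libraries 5 of 24 NF-kB genes, 4 of 14 interferon genes and 4 of 7 cytokines were higher, the last being Tnf, Il1a, Osm and Csf1.

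The share of dividing cells differed between high and zero cells by less than its spread over libraries. At 2000 UMIs per cell, at least 3 of 18 core G2/M genes were found in a mean of 7.73% of high and 6.23% of zero cells (difference 1.51 points, SD 4.71, n = 8 libraries, two-sided exact sign-flip permutation test p = 0.42). For core S genes the means were 5.59% and 4.15% (difference 1.44 points, SD 3.12, n = 8, exact permutation p = 0.23). The smallest p that 8 libraries allow is 0.0078. In unthinned cells 15.5% of high and 10.2% of zero cells were in G2/M, and 13.5% and 7.81% in S. Against depth-matched zero cells the G2/M direction turned, with 15.5% of high and 19.4% of zero cells (exact permutation p = 0.094), and 2 of the 3 core G2/M genes that could be tested were called lower. In control day 2 at 2000 UMIs per cell, 8 of 31 high cells were in G2/M (11.9–44.6%), against 16.8% of its zero cells. Without thinning, 19 of 31 high cells and 37.4% of zero cells of control day 2 were. Its depth-matched zero cells had 21 of 31 in G2/M. In control naive 0 of 10 high cells were in G2/M, which allows up to 30.8%.

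Markers of other cell types were present at different levels in high cells. The 6 neutrophil markers summed to 60.7 to 200.3 CPM in high cells and 158 to 259 CPM in zero cells, lower in 8 of 8 libraries, with Ly6g and Mmp8 at 0. Csf3r, the only neutrophil marker tested, was not called (log2 fold change -0.17). It was found in 29.4% to 63.6% of high and 38.9% to 49.6% of zero cells. S100a8, S100a9 and Retnlg were each found in at most 5.88% of high cells. The 6 monocyte markers summed to 0 to 98.5 CPM against 2.74 to 83.9 CPM, with Chil3 at 0. Plac8, the only one of them tested, was higher (0.99 ± 0.25, edgeR adjusted p = 0.0064) in 5 of 8 libraries. The 6 perivascular macrophage markers summed to at most 10.4 CPM, with Cd163, Lyve1 and Cbr2 at 0. The 6 astrocyte markers summed to 76.3 to 549.6 CPM in high and 106 to 386 CPM in zero cells, higher in 5 of 8 libraries, the 4 A20 cKO libraries and control day 2. Nearly all of this was Slc1a3, a glutamate transporter gene, with 67.6, 278 and 567 CPM in high and 111, 245 and 356 CPM in zero cells (0.37 ± 0.13, edgeR adjusted p = 0.076), while Aqp4, Gfap, Slc1a2, Aldoc and Gja1 each stayed at or under 25.3 CPM. Slc1a3 was called higher in the linked libraries by themselves (0.52), against depth-matched zero cells (0.61), with a sum of at least 10 (0.56), and without control naive (0.42), control day 1 (0.45) or control day 3 (0.48), and stood at -0.05 in control naive, day 1 and day 2. The 6 oligodendrocyte markers summed to 25.4 to 214 CPM in high and 61.2 to 200.5 CPM in zero cells, higher in 2 of 8 libraries. B cell markers reached 76.3 CPM in high and 55.3 CPM in zero cells, endothelial markers 46.7 and 54.2 CPM, T and NK cell markers 25.4 and 7.66 CPM, and neuron and ependymal markers 19.9 and 843.5 CPM. The part of these transcripts in the contrasts was not tested.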

How the data were processed

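For 8 libraries made with the 10x Genomics 3′ chemistry, the values the authors deposited are unnormalized UMI counts in sparse matrices. The submitters' processing notes name Cell Ranger 2.1.1 and mm10. Labels and methods name different kit versions. The deposited matrices held 14883 barcodes of 27998 genes, and 27645 (98.7%) matched GENCODE M21.

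Barcodes with at least 1000 UMIs, 500 genes and at most 10% mitochondrial UMIs were kept. Counts were summed per library and class, leaving Ccl3 and Ccl4 out of genes and library sizes. The sums were fitted with edgeR 4.0.16 in R 4.3.3 (TMM, filterByExpr, quasi-likelihood test, library as block), with DESeq2 1.42.0 as an alternative. CPM used TMM library sizes. Per-library ratios had 5 CPM added to both classes. Thinning to 2000 UMIs used a fixed seed. No doublet caller was run, and an alternative left out barcodes over 2 times the library median. On simulated data with 8 libraries (8066 genes), 57 of 64 genes changed 2-fold were recovered, and for the genotype difference (8019 genes) 25 of 66. P-values measure the spread between libraries of different conditions. Genes named are list members, the 10 largest changes in each direction with at least 20 CPM and 1 sign in every library, and the 5 largest in each direction for the genotype difference. The cells, lists and rules were chosen with earlier results of these data known. Some genes and sequences are not reported here.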

Additional observations from a re-analysis of the deposited data

Results flagged for a closer look

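Values were looked at again where 1 library lay far from the other 7, where a contrast differed between genotypes by the test of that difference, or where signal lay outside the cells used. Of 72 values with 8 libraries, 7 had a library apart from the rest by Dixon's criterion, which chance alone gives in about 1 of 20. Control day 1 stood apart in its share of Ccl3/Ccl4-high cells (37.7%, the nearest being 16.7%) and in the Ccl3 share of the Ccl3 and Ccl4 UMIs of these cells (53.3%, the nearest being 37.2%). Both values rest on the genes that chose the cells, so they are a description of the library and not a test.

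Control naive, with 10 high cells, stood apart in the log2 ratio of high over zero cells for Pcyox1 (-3.13), Per3 (-3.54), Usp18 (-1.80) and Sall1 (-2.04). Control day 2 stood apart for Cd74 (3.52, the nearest being 0.99).

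The contrast of high and zero cells differed between A20 cKO and control libraries, by the interaction test, for Fam89a (1.83), Sat1 (0.90), Lilrb4a (-2.86), Lgals3 (-2.79), Spp1 (-2.58), Lpl (-1.73) and Cxcl10 (-1.69), each as the A20 cKO log2 fold change minus that of control.

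Of the 257 barcodes that the quality limits left out, 4 had a Ccl3 and Ccl4 sum of at least 5.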

How the results depend on the processing

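The counts of higher and lower genes (504 and 309) fell to 197 and 75 against depth-matched zero cells, for which 3210 genes could be tested. They were 209 and 99 with cells thinned to 2000 UMIs, 291 and 100 against cells with a sum of 1 to 4, 52 and 13 in control naive, day 1 and day 2 alone, and 54 and 7 in cells without interferon gene UMIs, an alternative chosen after seeing the data, as was the split of linked and other libraries. DESeq2 gave 399 and 204, with no adjusted p for 956 genes. Leaving out 1 library at a time gave 343 to 570 higher and 170 to 332 lower genes, the lowest without A20 cKO naive (343 and 170).

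For the genotype difference (2 larger and 5 smaller contrasts), DESeq2 gave 1 and 1, depth-matched cells 0 and 0 (167 genes at an unadjusted p under 0.05), the fit without shared barcodes 1 larger, the fit without a filter 12 smaller and a sum of at least 10 gave 0 smaller. The linked split gave 15 and 2. Leaving out 1 library gave 1 to 11 in both directions, with 11 larger without control day 3 and 11 smaller without control day 1.

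Shares of high cells under thinning and with a sum of at least 10 were 18.9% and 19.1% in control day 1, 0.575% and 0.558% in control day 2, 1.06% and 1.04% in control day 3, 2.83% and 2.16% in A20 cKO naive, 2.72% and 2.85% in A20 cKO day 2, and 8.92% and 10.0% in A20 cKO day 3. In A20 cKO day 1 a sum of at least 10 gave 3.72%. With another seed for the thinning, the G2/M difference was 0.371 points (exact permutation p = 0.73) and the S difference 1.42 points (exact permutation p = 0.25). The G2/M difference was -3.96 points with depth-matched cells (exact permutation p = 0.094) and 0.433 to 2.24 points leaving out 1 library. The S difference was 0.829 to 2.23 points, with exact permutation p = 0.047 without control day 3.

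The log2 fold change changed sign in cells without interferon gene UMIs for Ccl9 (-0.18), Cxcl13 (-2.09), Tlr3 (-0.57) and Slc1a3 (-0.083), and in control naive, day 1 and day 2 for Tlr3 (-0.25) and Slc1a3 (-0.052). The causes were not tested. Of the other values of high against zero cells for 70 named genes, 1227 kept their direction and side of the threshold. The call was lost in 114 and gained in 6, all of Slc1a3. With the values for the genotype difference included, 1299 kept both and 158 lost the call. No further replicate block was possible because each library is the block already. With 10 to 45 high cells in 5 libraries, depth limits what these show.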
